A study of Mus musculus with 9 samples.

Results

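The odorant receptors described here are the genes with a symbol from Olfr835 to Olfr986, with or without a pseudogene suffix, in the mouse main olfactory epithelium (MOE). They were chosen by symbol alone and number 110 of the 1125 odorant receptor (OR) genes counted, out of 24421 genes in all. Of the symbol numbers in this range, 42 had no row. RNA was sequenced from whole MOE of C57BL/6 mice at postnatal day 14, from 9 libraries: 3 of wild-type mice (WT), 3 of mice with 1 deleted copy of TAAR enhancer 2 (heterozygous, het) and 3 of mice with both copies deleted (homozygous, homo). The enhancer is a regulatory element of the trace amine-associated receptor (Taar) genes on another chromosome. The deletion line was made by CRISPR-Cas9 editing, the genotypes were littermates, animals of both sexes were used, and the labels give all 9 samples the same strain and age. The methods name C57BL/6J zygotes for the editing and, for the mouse lines in general, a mixed background of C57BL/6J and 129, so C57BL/6 in the labels may not be the whole background. Comparing the genotypes asks whether loss of this element also moves receptor genes outside the Taar cluster.

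Odorant receptors are seven-transmembrane G protein-coupled receptors, and each mature olfactory sensory neuron (OSN) transcribes a single allele of a single receptor gene. A choice made neuron by neuron means that the level of an OR gene in whole tissue follows the number of neurons that chose it as well as the RNA in each, and in these bulk samples fewer cells of a type and less RNA per cell cannot be told apart. Receptor genes lie in clusters that grew by local duplication, the coding sequence is usually in a single exon, and distant enhancers bound by Lhx2, Ldb1 and Ebf proteins help their choice. The genes of this number range are class II receptors, the larger of the mammalian OR classes. Odorants bound by the individual receptors are not treated here.

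All 108 members matched to the GENCODE M21 annotation of build GRCm38 lay on chromosome 9, and Olfr899 and Olfr900 had no match. The annotation marks 103 as protein coding, 4 as polymorphic pseudogenes and 1 as an unprocessed pseudogene. They formed 2 runs, a run being a stretch of OR genes with no gap over 1 Mb. The first, called the 19 Mb run, held 26 members from Olfr835 to Olfr873 between chr9:19032735-20303599. The second, the 38 to 40 Mb run, held 82 members from Olfr874 to Olfr986 between chr9:37745106-40190134. Another 27 counted OR genes with symbols outside the number range lay in the same runs, 10 in the first run and 17 in the second.

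The members resembled each other unevenly. Over the 107 members with a coding sequence, of 915 to 993 bases, identity of coding bases had a median of 59.5% over 5671 pairs and ranged from 51.8% to 98.1%. The closest relative of a member within the set was at a median of 88.8% identity, and 28 pairs were over 90%. For 47 members the closest relative was the next member along the chromosome, where OR genes outside the set can lie between them. Stretches of 60 coding bases from the 3 closest pairs are printed because they show how little separates these genes for a sequencing read; capitals mark the bases that differ within a pair.

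The first pair is Olfr952 (chr9:39426093-39427148) and Olfr955 (chr9:39465801-39471944), both on the minus strand, at 98.1% identity; coding bases 133 to 192 are shown and differ at 1 base.
Olfr952: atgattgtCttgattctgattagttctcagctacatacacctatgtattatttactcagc
Olfr955: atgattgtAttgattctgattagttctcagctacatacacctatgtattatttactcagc

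The second pair is Olfr870 (chr9:20168533-20174057, minus strand) and Olfr871 (chr9:20212207-20213353, plus strand), at 97.5% identity; coding bases 59 to 118 are shown and differ at 1 base.
Olfr870: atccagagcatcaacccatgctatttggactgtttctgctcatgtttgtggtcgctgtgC
Olfr871: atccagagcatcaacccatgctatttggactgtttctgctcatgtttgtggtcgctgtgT

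The third pair is Olfr924 (chr9:38844449-38851495) and Olfr926 (chr9:38877126-38878176), both on the plus strand, at 96.1% identity; coding bases 1 to 60 are shown and differ at 2 bases.
Olfr924: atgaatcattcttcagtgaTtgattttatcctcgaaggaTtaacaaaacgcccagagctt
Olfr926: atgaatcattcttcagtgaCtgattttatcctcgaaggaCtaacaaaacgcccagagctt

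Counts within these pairs were lopsided. Counts of Olfr955 were 14, 9 and 28 in WT mice, 21, 19 and 16 in heterozygotes and 15, 42 and 20 in homozygotes, while Olfr952 had 1 count in WT replicate 3, 1 in het replicate 3 and 0 elsewhere. Olfr924 had 50 to 121 counts per library and Olfr926 had 3 counts in WT replicate 3 only. Olfr870 had 46 to 124 counts and Olfr871 had 27 to 59. These counts are not scaled by length, and annotated exon bases differ within the pairs. They are 1684 for Olfr955 and 1056 for Olfr952, 3431 for Olfr924 and 1051 for Olfr926, and 4091 for Olfr870 and 1147 for Olfr871. The treatment of reads that fit several genes is not stated, and of the 50-base windows in the annotated transcripts of Olfr952 only 53.8% occur in no other gene, so the split within such pairs is uncertain. For the members as a whole the median share of windows found in no other gene was 96.5%, and 6 members were under 80%, among them Olfr857, at 77.3%, and Olfr871, at 72.5%.

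The members were expressed at low levels, and nearly all were detected. They took 61952 counts over the 9 libraries, 104 had at least 10 counts in all and were tested, Olfr908, Olfr926 and Olfr952 had 7, 3 and 2 counts, and Olfr891, Olfr899 and Olfr900 were at 0 in every library. Library totals ran from 20527992 to 32262005 counts, so that 3 counts, the level that a count of 0 allows, came to 0.0928 to 0.147 CPM, the usual counts per M counts of the scaled library total. Mean levels of the tested members ran from 0.304 to 13.3 CPM with a median of 2.12, beside a median of 2.62 CPM for 984 other tested OR genes. The 10 members with the most counts held 26.5% of the member counts.

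Per kb of coding length, the scale used here to compare levels between genes, Olfr969 stood first at 14.2 CPM per kb against a median of 2.18 over 107 members. It ranked 20 among all OR genes by mean CPM, and by itself made up 5.01% of the member counts. Its level was 10.2, 14.3 and 14.2 CPM in WT, 9.32, 14.1 and 16.5 in het and 10.3, 15.8 and 14.6 in homo. Replicate 1 was the lowest library of each genotype, and the 3 genotypes overlapped. The gene lies at chr9:39790945-39796635 in the 38 to 40 Mb run.

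After Olfr969 came Olfr959 (8.62 CPM per kb), Olfr972 (8.38), Olfr857 (7.71), Olfr943 (7.64), Olfr961 (6.55), Olfr884 (5.99), Olfr923 (5.91), Olfr874 (5.50) and Olfr859 (5.40). Between neighbours from Olfr959 down, the libraries overlapped: Olfr959 ranged from 6.99 to 9.79 CPM, Olfr972 from 6.97 to 9.94 and Olfr857 from 4.09 to 9.16. Olfr857 and Olfr859 belong to the 19 Mb run and the other 8 to the 38 to 40 Mb run. Median levels of tested members were 2.97 CPM in the first run (n = 26) and 2.00 CPM in the second (n = 78). The order depends on the length used: per kb of annotated exon, only 5 of these 10 members kept a place among the highest 10, and Olfr859, with 9598 annotated exon bases, moved from rank 10 to rank 70.

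**Figure D1:**
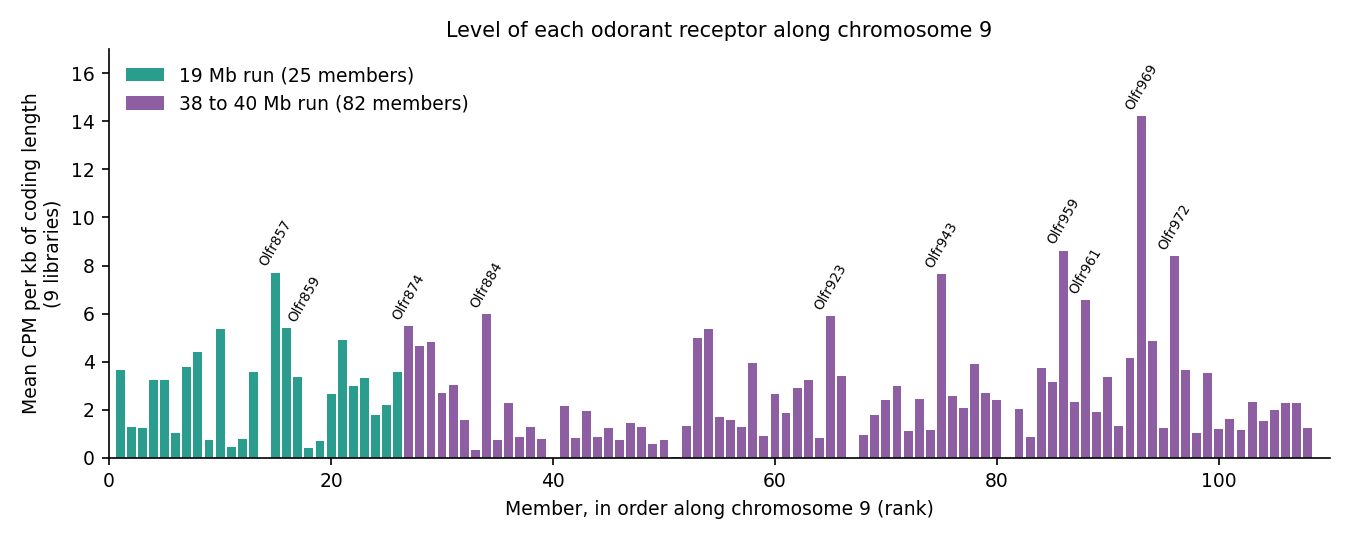
Mean CPM per kb of coding length over 9 libraries (bars, y axis) for 107 members in their order along chromosome 9 (rank, x axis), coloured by run, with the 10 highest named. Olfr969 reaches 14.2 and no other member passes 8.62; the bar of Olfr891 is 0, Olfr908, Olfr926 and Olfr952 are close to 0, and the pseudogene Olfr856-ps1, with no coding length, has no bar.

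**Figure D2:**
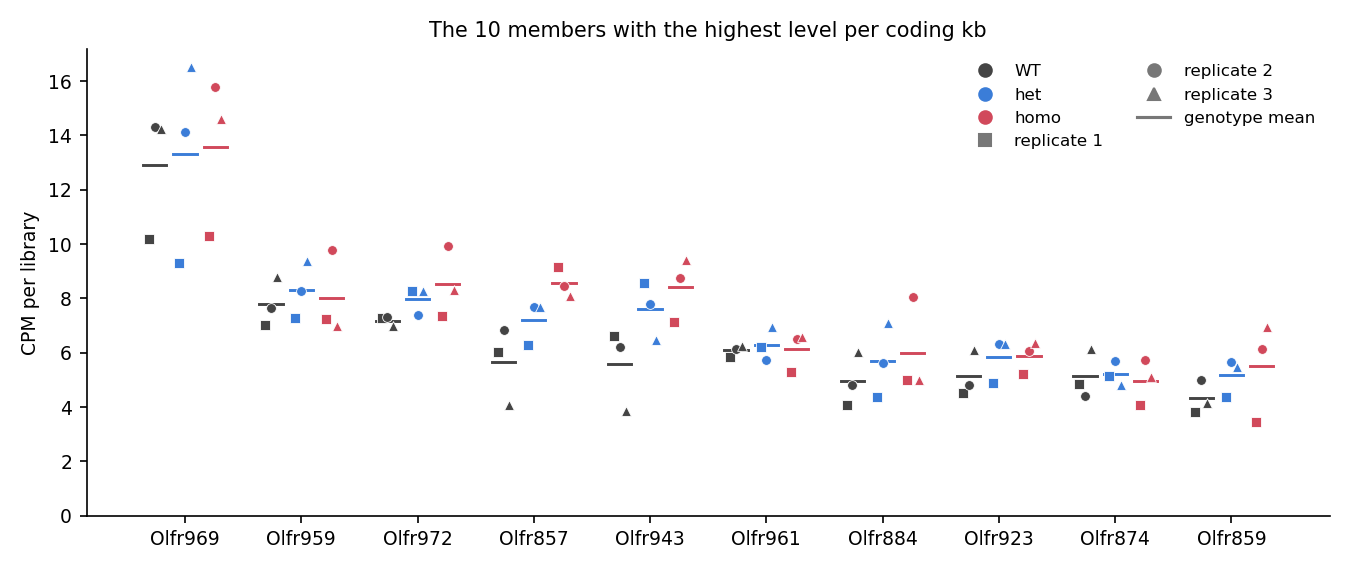
CPM in each of the 9 libraries (points, shape by replicate number, colour by genotype) for the 10 members with the highest level per coding kb, with genotype means as lines. The genotypes overlap for Olfr969, whose replicate 1 libraries are the lowest of each genotype, while the 3 homo values of Olfr857, Olfr943 and Olfr972 lie above their 3 WT values.

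How far the annotation extends beyond the coding sequence went with the counts. For 9 members, Olfr850, Olfr854, Olfr883, Olfr885, Olfr891, Olfr908, Olfr915, Olfr917 and Olfr936, GENCODE gives coding bases and at most the stop codon, and these had 0 to 272 counts in all (median 160). The other 99 matched members had a median of 499. They have annotated exon bases beyond the coding sequence, apart from the pseudogene Olfr856-ps1, which has no coding sequence. The part of the annotation in these lower counts was not tested. Of the members with a pseudogene suffix, Olfr947-ps1 was the highest, with 2.47 to 4.28 CPM over the libraries, followed by Olfr911-ps1 at 0.544 to 1.94 CPM and Olfr856-ps1 at 0.335 to 0.933 CPM. Olfr947-ps1 ranked 21 of 107 per coding kb, and the annotation gives it as a polymorphic pseudogene. Despite its symbol, Olfr911-ps1 is annotated as protein coding, and Olfr856-ps1 as an unprocessed pseudogene.

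Some members were very even between libraries and others were not. Among members with a mean of at least 50 counts, the SD of log2 CPM within genotypes was smallest for Olfr944 (0.0963), Olfr961 (0.129) and Olfr972 (0.137). The median over these 56 members was 0.305. Olfr944 measured 2.31, 2.32 and 2.03 CPM in WT, 2.55, 2.27 and 2.46 in het and 2.36, 2.65 and 2.68 in homo. The largest SDs belonged to Olfr976 (0.561), Olfr868 (0.527) and Olfr948 (0.474). These 3 are also among the members that were lower in the libraries numbered 1, described further on. The SD within genotypes includes that difference, so the 2 descriptions rest on the same values.

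Sequence upstream of the members could be shown for few of them. RefSeq windows of build GRCm38.p6 existed for 91 members, but only 21 windows, of 20 members, began at a transcript start also known to GENCODE and away from the coding start. The 250 bases before that start are printed for 3 members, those among the 10 highest per coding kb or the 5 with the smallest p for replicate number that have a single such window. Capitals mark matches, on either strand, to TAATTG or TAATGA, 6-base words containing the TAAT core that homeodomain proteins such as Lhx2 bind; the words can overlap. CCCNNGGG, an Ebf-type palindrome, was searched as well and is in none of the 3.
Olfr868 (chr9:20098376-20098625, plus strand): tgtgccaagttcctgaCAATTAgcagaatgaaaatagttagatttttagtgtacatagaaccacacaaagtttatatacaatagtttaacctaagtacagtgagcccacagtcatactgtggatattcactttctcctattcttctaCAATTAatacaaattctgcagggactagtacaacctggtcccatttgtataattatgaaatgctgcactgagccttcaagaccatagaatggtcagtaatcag
Olfr921 (chr9:38772838-38773087, plus strand): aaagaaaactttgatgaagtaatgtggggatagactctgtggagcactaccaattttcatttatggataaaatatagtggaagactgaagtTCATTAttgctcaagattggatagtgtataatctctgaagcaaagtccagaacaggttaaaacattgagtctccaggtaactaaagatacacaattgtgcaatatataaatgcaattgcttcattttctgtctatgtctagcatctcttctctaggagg
Olfr943 (chr9:39166060-39166309, plus strand): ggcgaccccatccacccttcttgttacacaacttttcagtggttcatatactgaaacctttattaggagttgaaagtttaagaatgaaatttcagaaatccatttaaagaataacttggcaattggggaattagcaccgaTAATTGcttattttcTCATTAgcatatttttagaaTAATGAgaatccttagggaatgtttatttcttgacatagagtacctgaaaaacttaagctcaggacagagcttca

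Over the 21 windows of 300 bases, TAATTG was in 33.3%, TAATGA in 38.1% and CCCNNGGG in 4.8%. In 132 windows of other OR genes selected the same way the shares were 31.1%, 33.3% and 9.8%, and in all 32851 windows they were 8.0%, 9.8% and 13.7%. A match describes letters in these windows and is not a measured binding site.

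Between homozygous and WT mice no member passed the test. With adjusted p under 0.05 and a change over 1.5-fold, 0 of 104 members were called by the quasi-likelihood test of edgeR, beside 4 of 19775 genes tested (0.0202%), which were Taar3, Taar6, Taar7a and Taar9, all lower in homo. The lowest adjusted p of a member was 1, the Wald test of DESeq2 also called 0 members, and 7 members (6.73%), all higher in homo, had an unadjusted p under 0.05, beside 3.05% of other OR genes and 3.45% of all genes tested. That count was 12 with the replicate number as a block and 14 with a term for number 1, with 0 called in both fits. For the alternative fits here and below, the share of all genes at that unadjusted p was not counted. The members with the smallest unadjusted p, not called, had log2 fold changes of 0.60 for Olfr857 (SE 0.20), 0.55 for Olfr860 (SE 0.20) and 0.63 for Olfr845 (SE 0.23). The SE of a member had a median of 0.30, and the 11 members with a change over 1.5-fold, all higher in homo, were not called either.

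Olfr857 measured 6.03, 6.83 and 4.09 CPM in WT, 6.29, 7.67 and 7.68 in het and 9.16, 8.47 and 8.10 in homo. All 3 homo libraries lay above all 3 WT and all 3 het libraries. This is the member with 77.3% of windows found in no other gene, so its split from close copies is uncertain. Olfr860 measured 2.85, 2.29 and 2.88 CPM in WT and 3.31, 3.87 and 4.50 in homo, again without overlap. Olfr845 measured 2.11, 2.63 and 1.99 CPM in WT, 3.55, 3.10 and 3.41 in het and 2.58, 4.38 and 3.46 in homo, where replicate 1 of homo fell inside the WT range.

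On the other side, the members with the smallest p among those with lower values in homo were Olfr979, Olfr920 and Olfr982, and in each of them the genotypes overlapped. Olfr979 measured 1.57, 1.42 and 1.84 CPM in WT and 1.496, 1.44 and 0.929 in homo, a log2 fold change of -0.33 (SE 0.26). Olfr920 had a log2 fold change of -0.33 (SE 0.32) and Olfr982 of -0.16 (SE 0.34). These 3 genes lie in the 38 to 40 Mb run.

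Although no member was called, the values leaned one way. Of 104 members, 87 (83.7%) had a log2 fold change above 0 in homo against WT, with a median of 0.266. Other OR genes had a median of 0.200 with 82.3% above 0, and all genes tested had a median of 0.004. In 13 members (12.5%) every homo library was above every WT library, and in 0 was every homo library below, where 2.97% and 2.71% of all genes tested did so; among other OR genes the shares were 9.04% and 0.407%. The 13 are Olfr857, Olfr860, Olfr849, Olfr854, Olfr943, Olfr872, Olfr935, Olfr912, Olfr983, Olfr836, Olfr945, Olfr972 and Olfr944, most of them chosen for naming after their values were seen.

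The lean of the median depended on single libraries. It was 0.113 without homo replicate 2, the library with the highest summed OR level, and 0.401 without homo replicate 1. The 7 members with an unadjusted p under 0.05 became 2 without WT replicate 3 and 11 without WT replicate 1 or 2. Marker lists of other cell types had medians away from 0 between these genotypes as well, and their part in the lean was not tested. In these lists 0 genes were called, and the summed levels of WT and homo overlapped in every list. The blood and immune sum, for example, was 149 to 1170 CPM in WT and 125 to 355 CPM in homo. The median log2 fold change in homo against WT was -1.05 over the blood and immune list, -0.74 over secretory gland and -0.45 over horizontal basal genes, 0.45 over bone and cartilage genes, -0.235 over ciliated respiratory, 0.15 over immature OSN, 0.09 over sustentacular and 0.08 over mature OSN genes. WT replicate 3 stood apart, with 1166 CPM summed over the blood and immune list against 125 to 391 CPM in the other 8 libraries. Without it the median of the members was 0.255. Leaving out all 3 libraries numbered 1 gave a median of 0.332, with 0 members called and 11 at an unadjusted p under 0.05.

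Heterozygous and WT mice gave no called gene at all. In het against WT 0 of 104 members were called, as were 0 of 19775 genes (0%), and 2 members (1.92%) had an unadjusted p under 0.05, beside 1.42% of other OR genes and 1.28% of all genes tested. With the replicate number as a block, which pairs het with WT, 6 members did so and 0 were called. Olfr845 (log2 fold change 0.57, SE 0.23) and Olfr835 (0.65, SE 0.28) were those 2, followed by Olfr963 (0.61, SE 0.29). Olfr835, the first member along the chromosome, measured 1.96, 3.53 and 2.06 CPM in WT and 3.83, 3.89 and 4.20 in het, without overlap. Olfr963 measured 1.28, 1.11 and 1.70 CPM in WT and 1.70, 2.00 and 2.54 in het, where the highest WT and lowest het libraries are almost equal.

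Lower values in het were led by Olfr905, Olfr986 and Olfr875. Olfr905 measured 1.52, 1.14 and 1.11 CPM in WT and 0.757, 0.907 and 0.911 in het, which did not overlap, and the log2 fold change was -0.54 (SE 0.31). For Olfr986, the last member along the chromosome, it was -0.37 (SE 0.27) and for Olfr875 -0.29 (SE 0.21). The median over the members was 0.181 with 80 of 104 above 0, beside 0.115 for other OR genes, and it was 0.109 without het replicate 3, where 0 members had an unadjusted p under 0.05. In 9 members every het library was above every WT library and in 2 every het library was below, which are 8.65% and 1.92%, where 2.01% and 1.95% of all genes tested and 6.1% and 1.42% of other OR genes did so.

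Homozygous against heterozygous mice gave 0 called members, beside 1 of 19775 genes, or 0.00506%, which was Taar6. One member, Olfr905, had an unadjusted p under 0.05 at a log2 fold change of 0.71 (SE 0.31), while DESeq2 and the fit with the replicate block found 0 members at that level. Its homo libraries measured 1.18, 1.97 and 1.08 CPM, all above its het libraries, while its WT libraries lay among the homo values. Olfr853 followed with 1.16 (SE 0.57) from 3, 8 and 10 counts in het and 16, 22 and 11 in homo, and Olfr960 with 0.50 (SE 0.27). Lower values in homo were led by Olfr979 (-0.35, SE 0.26), Olfr898 (-0.50, SE 0.39) and Olfr870 (-0.32, SE 0.25), and all 3 overlapped between genotypes. In 9 members (8.65%) the homo libraries all lay above the het libraries and in 0 below, where 2.35% and 1.81% of all genes tested and 5.89% and 1.12% of other OR genes did so. The median over the members was 0.072 with 69 of 104 above 0, or 66.3%, beside 0.085 and 67.1% for other OR genes. Without homo replicate 2 it was -0.076 with 42 above 0, and without homo replicate 1 it was 0.213. The 3 comparisons share libraries, so their values are given side by side only.

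Summed over all 110 members, the level was 223, 256 and 248 CPM in WT, 240.0, 276 and 302 in het and 236, 332 and 295 in homo. The means were 242 ± 17.1, 273 ± 31.0 and 288 ± 48.4 CPM (SD, n = 3), or 112% of WT in het and 119% in homo. The homo library numbered 1 lay inside the WT range and the other two homo libraries above it. Within each replicate number the het library was above the WT library. Without each library in turn the homo sum was 109% to 129% of WT. Other OR genes summed to 109% and 114% of WT, chromosome 2 receptors from Olfr987 to Olfr1318 to 113% and 117%, and class I receptors from Olfr543 to Olfr692 to 98.4% and 109%.

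The member sum was also set against other measures of sensory neurons. The ratio of the member sum to Omp, the olfactory marker protein of mature OSNs, was 113% of WT in het and 114% in homo, and the ratio to 18 mature OSN and odorant signalling genes was 110% and 113%. As a share of all OR counts the members made up 6.72%, 6.64% and 7.25% in WT, 6.78%, 7.09% and 7.33% in het and 6.70%, 7.50% and 7.08% in homo. The genotypes overlapped in this share, with means of 6.87%, 7.07% and 7.10%. Within each replicate number the share was higher in het than in WT. Levels of the 18 mature OSN genes themselves overlapped, at 10000 to 10600, 10100 to 10800 and 10300 to 11600 CPM in WT, het and homo.

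The values are given for the 2 runs separately, with no test of the difference between them. Median log2 fold changes in homo against WT were 0.418 over 26 members of the 19 Mb run, 24 of them above 0, and 0.253 over 78 members of the 38 to 40 Mb run, 63 of them above 0. Of the 7 members with an unadjusted p under 0.05, Olfr845, Olfr849, Olfr854, Olfr857 and Olfr860 belong to the first run and Olfr943 and Olfr984 to the second. The 24 tested OR genes of other symbols within the runs had a median of 0.152.

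As a share of all OR counts, the members of the 19 Mb run made up 1.74%, 1.66% and 1.53% in WT. They made up 1.77%, 1.74% and 1.92% in het and 1.80%, 1.93% and 1.93% in homo. All homo libraries were above all WT libraries, by 0.242 percentage points on average. The difference was 0.055 points between the libraries numbered 1 and 0.335 points between those numbered 2 and 3. The members of the 38 to 40 Mb run made up 4.98% to 5.72% in WT and 4.91% to 5.57% in homo, which overlap. The 27 counted OR genes of other symbols in the 2 runs together averaged 1.89% in WT and 1.86% in homo. They are not part of these shares. The 19 Mb run was singled out after its values were seen, so its members' share is a description with no test.

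**Figure D3:**
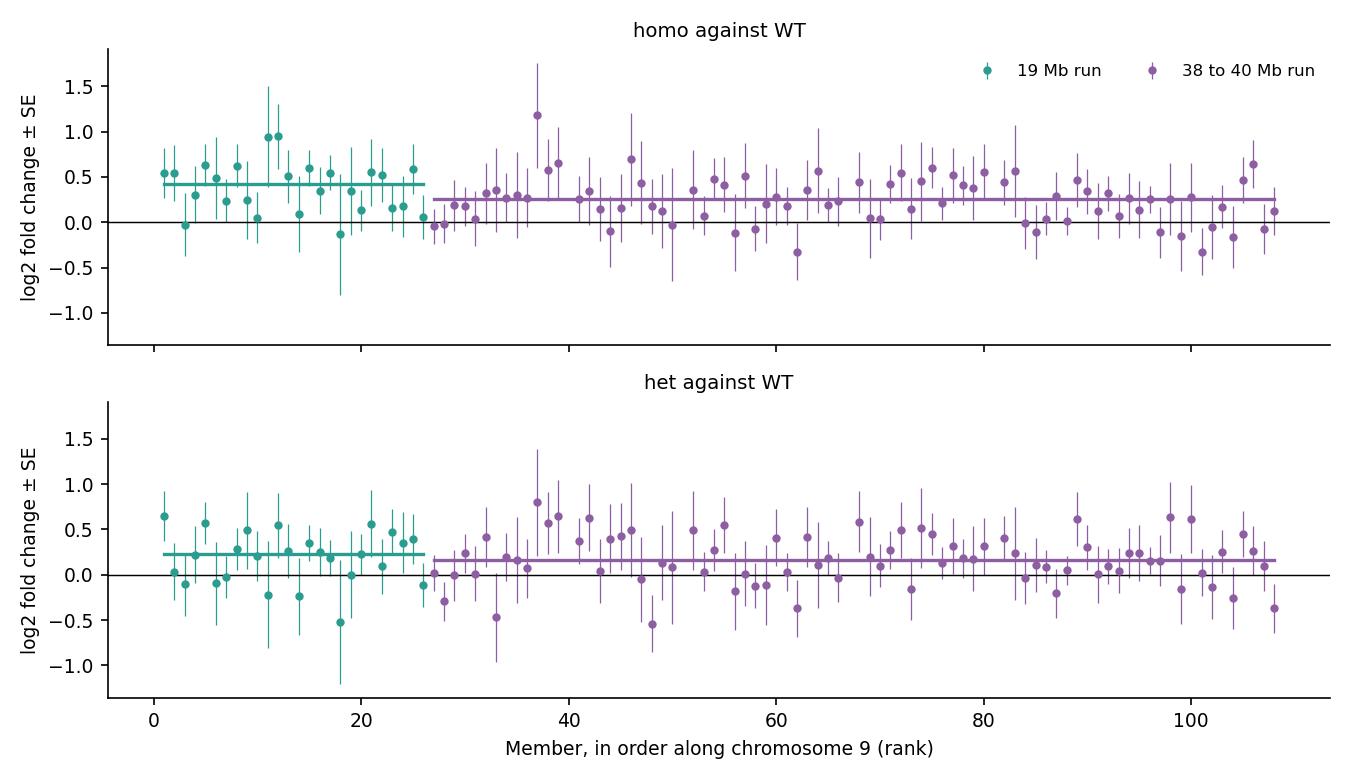
Log2 fold change with its SE (y axis) of the 104 tested members in their order along chromosome 9 (rank, x axis), for homo against WT (top) and het against WT (bottom), with the median of each run as a line. Most points lie above 0 in both panels, none was called, and the line of the 19 Mb run (0.418) is above that of the 38 to 40 Mb run (0.253) in the top panel.

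**Figure D4:**
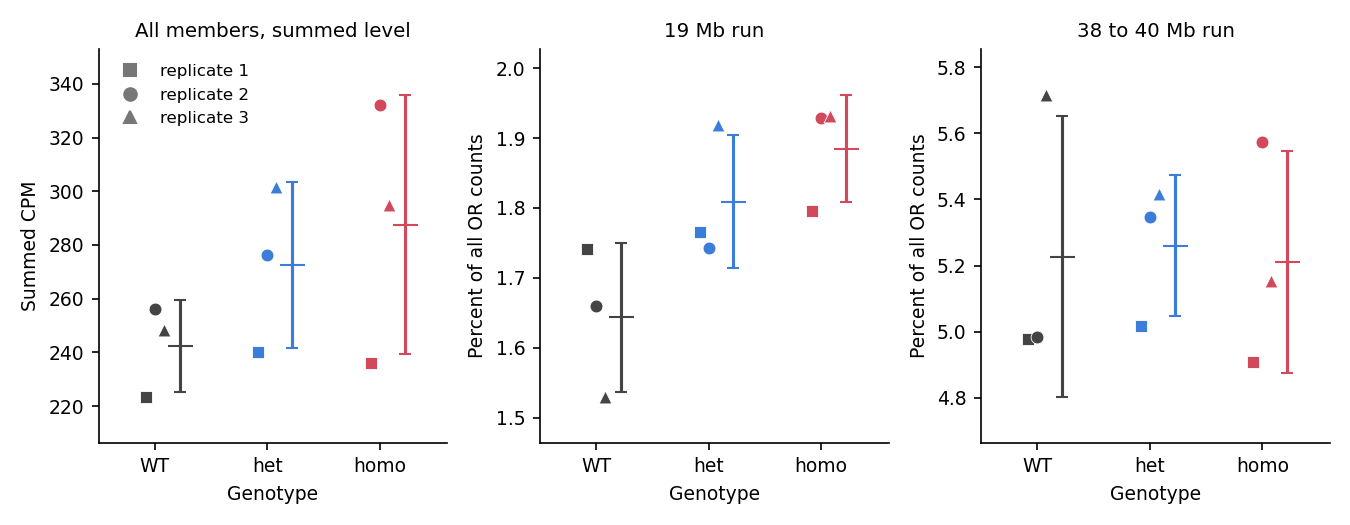
Summed CPM of the 110 members (left) and the share of all OR counts taken by members of the 19 Mb run (middle) and of the 38 to 40 Mb run (right). Points are libraries, by genotype, with mean and SD (n = 3) beside them. The y axes do not start at 0. Replicate 1 is the lowest library of each genotype in the left panel, and only in the middle panel do WT and homo not overlap.

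Members were called lower with replicate number but not with genotype, and these 2 kinds of difference were not tested against each other. The labels do not say what a number marks, and number 1 was singled out because its 3 libraries stand apart from the rest, so the p-values below describe a split already seen in the data. With genotype in the model, 16 of 104 members were called lower in libraries numbered 1 than in those numbered 2 and 3, and 0 were called higher. Of all genes tested 8.95% were called, 3.52% lower and 5.42% higher. Among 984 other OR genes 122 were called lower and 12 higher. DESeq2 called 11 members, all lower.

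The 16 called members had log2 fold changes from -0.59 to -1.06 and adjusted p from 0.00209 to 0.0495 in edgeR. In each of the 16, number 1 was the lowest library within every genotype, and in 14 all 3 libraries numbered 1 lay below all 6 others. They were, from the smallest p, Olfr969, Olfr976, Olfr868, Olfr970 and Olfr921, and further Olfr974, Olfr843, Olfr904, Olfr933, Olfr948, Olfr957, Olfr878, Olfr887, Olfr914, Olfr937 and Olfr938. Olfr868 and Olfr843 lie in the 19 Mb run, and the other 14 in the 38 to 40 Mb run. Olfr969, Olfr970, Olfr974 and Olfr976 lie near each other there. Between them lie Olfr971, Olfr972 and Olfr975, which were not called.

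Olfr976 measured 1.86, 2.08 and 2.49 CPM in the WT, het and homo libraries numbered 1 and 3.68 to 5.16 CPM in the other 6, a log2 fold change of -0.94 (SE 0.17, adjusted p 0.00427 in edgeR). Olfr868, whose upstream sequence is printed above, measured 2.01, 3.595 and 3.22 CPM against 3.46 to 6.58 CPM, a change of -0.88 (SE 0.17, adjusted p 0.00482 in edgeR). Here het replicate 1 and WT replicate 3 overlapped slightly. Olfr970 changed by -0.63 (SE 0.12, adjusted p 0.00563 in edgeR) and Olfr921 by -0.74 (SE 0.16, adjusted p 0.0092 in edgeR). Olfr969 changed by -0.59 (SE 0.09, adjusted p 0.00209 in edgeR), close to the 1.5-fold limit.

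Over all members the median log2 fold change with number 1 was -0.262, beside -0.214 for other OR genes and -0.027 for all genes tested, and 21 of 104 members were above 0. The sum of the members in libraries numbered 1 was 81.8% of that in the others. For other OR genes it was 87.4%, for the chromosome 2 receptors 74.8% and for the class I receptors 89.3%. One member, Olfr869, went the other way at an unadjusted p under 0.05 but was not called, with a log2 fold change of 0.49 and an adjusted p of 0.0901 in edgeR.

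The count of called members rested on which libraries were used. Without homo replicate 1 it was 4, without het replicate 1 it was 6 and without WT replicate 1 it was 7. Calls over all genes, in either direction, were 1168, 1323 and 1474 in these fits, beside 1769 with all libraries. In the fits that follow, calls over all genes were 1456 to 2219. Without het replicate 2 or homo replicate 2 the count of called members was 9, without homo replicate 3 it was 10 and without het replicate 3 it was 11. Without WT replicates 2 and 3 in turn it was 16 and 17.

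**Figure D5:**
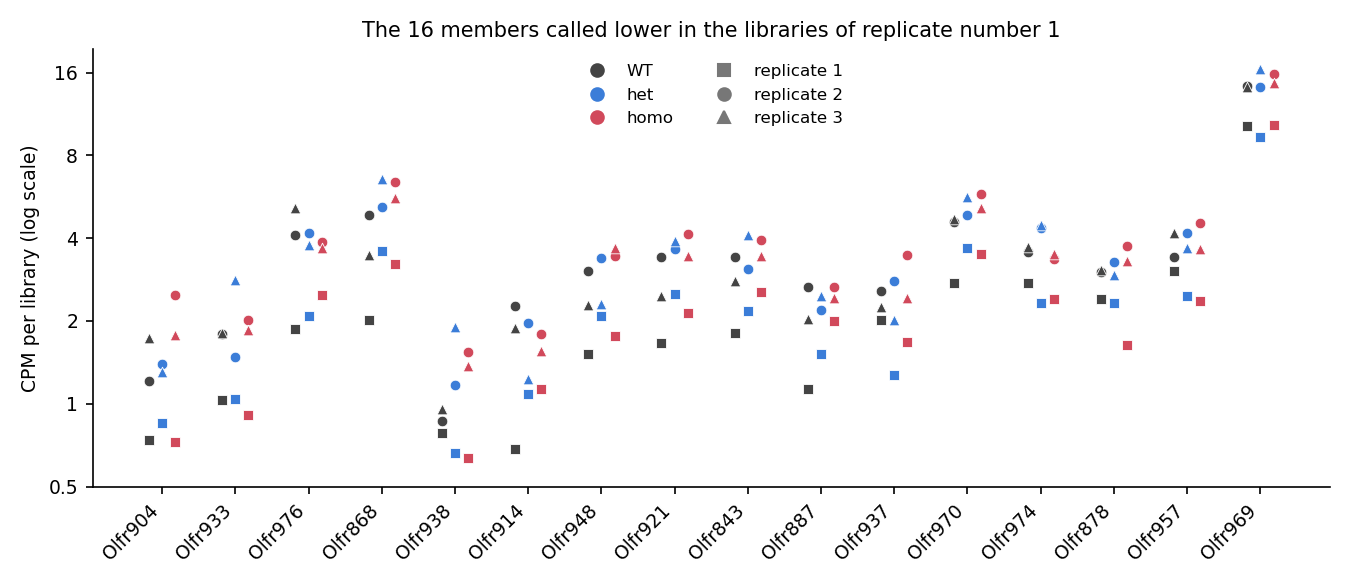
CPM in each of the 9 libraries (y axis, log scale) for the 16 members called lower in the libraries of replicate number 1, ordered by log2 fold change from -1.06 (Olfr904) to -0.59 (Olfr969), with shape by replicate number and colour by genotype. The squares, replicate 1, are the lowest of the 3 points of each genotype in every column.

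Other cell types moved with the replicate number, and their part in the members' difference was not tested. Of 8 immature OSN genes 3 were called higher in number 1, among them Gap43, and their summed level was 1900 to 1950 CPM there against 1300 to 1700 CPM in the other libraries. Neurog1 and Neurod1, transcription factors of neuronal precursors, were called higher as well, by 1.66 (SE 0.12) and 0.68 (SE 0.10) on the log2 scale; they were chosen after their values were seen. Of the 18 mature OSN genes 1 was called higher and none lower, with sums of 10000 to 10700 against 10100 to 11600 CPM. Called higher were also 4 of 6 ciliated respiratory genes (614 to 668 against 322 to 475 CPM), 2 of 4 horizontal basal genes (155 to 245 against 78.9 to 109 CPM), 2 of 4 bone and cartilage genes (5030 to 5380 against 2570 to 3550 CPM) and 1 of 6 sustentacular genes. Called lower were 4 of 6 tested blood and immune genes (125 to 149 against 232 to 1170 CPM) and 1 of 6 secretory gland genes; the other 2 blood genes had too few counts to test.

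Among 18 genes that act in OR choice or receptor feedback, some shared with the other lists, 3 were called higher in number 1 and none lower. Lhx2, whose product binds OR enhancers, changed by 0.84 (SE 0.06), Emx2, a homeodomain factor for OR expression, by 0.69 (SE 0.06) and Atf5, which acts in the feedback after choice, by 0.61 (SE 0.08). Ldb1, the partner of Lhx2 at these enhancers, changed by 0.25 (SE 0.06) and was not called. In the genotype comparisons 0 genes of these lists were called.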

How the data were processed

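RNA from whole MOE was made into directional polyA-selected libraries. According to the methods and the submitters' processing notes, reads were trimmed with Trimmomatic 0.36, mapped to mm10 (GRCm38) with HISAT2 2.1.0 and counted per gene with featureCounts of Subread 1.6.2. The authors deposited these raw counts for every library and, as a second table, a signal of normalized counts made with DESeq2 1.20.0. In the deposited normalized counts each value is the raw count divided by a single size factor per library (0.8062 to 1.2753), and the member sum there is 112% (het) and 118% (homo) of WT. Strand option, annotation release and treatment of reads that fit several genes are not given in the sources used here.

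Raw counts were tested in R 4.3.3 with edgeR 4.0.16 (quasi-likelihood test, TMM scaling), all 9 libraries sharing 1 spread estimate, 19775 genes with at least 10 counts in all, and Benjamini-Hochberg adjustment over all of them. A call needed an adjusted p under 0.05 and a change over 1.5-fold; tests were two-sided. CPM used TMM effective library sizes; SDs of log2 CPM added 0.1 CPM. The common dispersion was 0.0545 (a coefficient of variation of 23.3%). The limit of 3 counts for a count of 0 covers counting error only, while SEs and SDs include the spread between libraries. The labels name no animals, so p-values measure the spread between these samples. The pipeline was tested on simulated data.

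Replicate numbers were judged from correlations of deviations from group means over 16519 genes with a mean count of at least 20. For the same number they were 0.656, 0.436 and 0.599 for het with WT, 0.773, 0.304 and 0.124 for homo with het, and 0.513, 0.278 and -0.083 for homo with WT. For different numbers, het with WT reached at most 0.012. Het replicate 2 with homo replicate 3 gave 0.563 and het replicate 3 with homo replicate 2 gave 0.504, above their same-number values. With 0.1 as the limit for every same-number pair, het with WT and het with homo passed, and WT with homo did not. So the numbers paired het with WT, while in het with homo only number 1 stood apart from numbers 2 and 3.

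Coordinates, exons and coding sequences came from GENCODE M21; coding lengths and identities of coding bases replaced the planned protein lengths and protein identities, since no protein table was used here. Upstream windows came from RefSeq, build GRCm38.p6, with a tolerance of 100 bases to a GENCODE start and at least 50 bases from the coding start. Members and gene lists were chosen with earlier results of these data known. Named members were the 10 with the highest CPM per coding kb, the 3 with the smallest p in each direction of each genotype comparison, the 5 with the smallest p for replicate number, the 3 smallest and 3 largest SDs of log2 CPM at a mean count of at least 50, the 3 closest pairs, the 3 -ps symbols and members at 0; others were named after their values were seen. Gene lists covered mature and immature OSNs, OR choice, horizontal basal, sustentacular, ciliated respiratory, secretory gland, blood and immune, and bone and cartilage genes; 1 further list is not reported here. Alternatives were other scalings, filters, DESeq2 1.42.0, 2 genotypes only, replicate terms and leaving out each library.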

Additional observations from a re-analysis of the deposited data

How the results depend on the processing

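No member was called in a genotype comparison under any alternative run. Of 620 values under alternatives for 39 results, 601 were labelled unchanged. For single members this meant the same direction and side of the threshold, and for medians, sums and shares a value within the spread. For counts of members it meant within 1.5-fold, so that 11 members called lower in number 1 in place of 16 was labelled unchanged. With the replicate block the median log2 fold change of the members was 0.259 in homo against WT, 0.186 in het against WT and 0.064 in homo against het, and 0 members were called in each. Over all genes the block moved the calls from 4 to 3 in homo against WT and from 1 to 3 in homo against het, and it left het against WT at 0. Olfr982 in homo against WT turned to 0.082 without WT replicate 3 and to 0.010 without homo replicate 3, and ranged from -0.521 to 0.082 when each library was left out. The number of members above 0 in homo against het ranged from 42 to 87 when each library was left out in turn, and members called lower in number 1 from 4 to 17. Calls over all genes with number 1 ranged from 1168 to 2219 in the same fits. Per exon kb, 5 of the 10 members highest per coding kb remained among the highest 10. Olfr969 fell under the 1.5-fold limit with the filterByExpr filter (-0.58), and in some fits without a library, as did Olfr970 without WT replicate 1; Olfr921 lost its call without WT or homo replicate 1. The share of the 19 Mb run's members differed by 0.055 points within number 1 and 0.335 points within numbers 2 and 3, chosen after seeing the data like the fit without number 1. The causes were not tested. With a median of 492 counts per tested member over 9 libraries, depth limits the resolution of single members.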
